A study of Mus musculus with 10 samples.

Results

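The Hox genes described here are all genes whose symbol in the deposited tables reads Hoxa, Hoxb, Hoxc or Hoxd followed by a number. This rule used names and no measured value. It took 36 of the 19214 genes that are listed in any of the tables: 8 of cluster A on chromosome 6, 10 of cluster B on chromosome 11, 9 of cluster C on chromosome 15 and 9 of cluster D on chromosome 2. By paralog group, the number in the name, 7 were anterior (groups 1 to 3), 14 were central (groups 4 to 8) and 15 were posterior (groups 9 to 13). Rows existed for 35 of them in the jejunal table, 34 in the colonic table and 29 in the mucosal table, and a gene without a row is treated as below the cutoff of 0.025 FPKM. The mouse annotation names 39 such genes, and 3 of them were not analysed here.

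Hox genes encode homeodomain transcription factors that give cells of the embryo their position along the head to tail axis. The genes lie in clusters, and in each cluster the low-numbered genes at one end are used nearer to the head and the high-numbered genes at the other end nearer to the tail. In the gut, the mesenchyme that forms the muscle carries most of this code, and posterior genes of clusters A and D mark the hindgut, from which the colon arises, while the jejunum comes from the midgut. Proteins of the Pbx and Meis families bind DNA together with Hox proteins, and Cdx factors activate Hox genes in the embryo.

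The series holds RNA-seq of the mouse gut from 10 libraries, 1 for each condition, so values are described without a test. In jejunum and in colon the unsorted smooth muscle layer (SM tissue), sorted smooth muscle cells (JSMCs and CSMCs), sorted interstitial cells of Cajal (ICC, the pacemaker cells) and sorted PDGFRα+ cells were sequenced. From the colon there were also unsorted mucosa and PDGFRα+ cells sorted from mucosa. All mice were 4 weeks old on a C57BL/6 background. SMCs came from smMHCCre-eGFP/+ mice, in which the smooth muscle myosin promoter drives eGFP, and cells of many mice were pooled into 1 sample. ICC came from KitcopGFP/+ mice, in which copGFP is expressed from the *Kit* locus. PDGFRα+ cells and mucosa came from PdgfraeGFP/+ mice, with eGFP in the *Pdgfra* locus. The labels list SM tissue under KitcopGFP/+, while the study's methods describe smMHCCre-eGFP/+ mice for it. Values are FPKM, fragments scaled to transcript length and library size, summed over the variants of a gene. The tables hold no read totals and the study gives these for the SM tissue and SMC libraries alone, so no counting error is given here, and the jejunal, colonic and mucosal tables were made separately, which limits levels set across them.

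Marker genes matched most labels. *Kit* was at 468 FPKM in jejunal ICC and 792 in colonic ICC against 29.4 and 41.4 in SM tissue. *Myh11* was at 3773 and 3807 FPKM in JSMCs and CSMCs, against 3370 and 3168 in SM tissue. The library labelled jejunal PDGFRα+ cells matched its label only in part. Its *Pdgfra* level was 34.0 FPKM against 57.0 in jejunal SM tissue, and *Kcnn3* was also lower, at 21.2 against 23.6 FPKM. The other PDGFRα+ cell markers, 4 of 6, were at or above tissue, and all 6 summed to 355 against 349.9 FPKM. Its *Myh11* level was 1677 FPKM against 3370 in tissue. All 6 of 6 epithelial markers were at or above tissue, with a summed level of 122 against 12.4 FPKM. It is called the library labelled jejunal PDGFRα+ cells throughout, and organ results are also given without it. The mucosal PDGFRα+ library had *Pdgfra* at 228 FPKM against 10.96 in mucosa, and it also held epithelial markers, at a summed 1268 FPKM against 4628 in mucosa.

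Hox transcript was measured in every library. Of all 19214 genes listed, 56.8% in CSMCs to 66.0% in colonic SM tissue reached 1 FPKM. Of the 36 Hox genes, between 13 and 23 did, a smaller share in each library. They were 18 in SM tissue of jejunum, 17 in JSMCs, 19 in jejunal ICC, 21 in the library labelled jejunal PDGFRα+ cells, 23 in colonic SM tissue, 17 in CSMCs, 20 in colonic ICC, 18 in colonic PDGFRα+ cells, 17 in mucosa and 13 in mucosal PDGFRα+ cells. The summed Hox level lay between 95.1 FPKM in mucosal PDGFRα+ cells and 613 FPKM in colonic ICC, with 243 FPKM in jejunal ICC as the next highest. The highest gene differed by library. It was *Hoxb5* in SM tissue of both organs (35.6 and 35.2 FPKM) and in the library labelled jejunal PDGFRα+ cells (42.0 FPKM). It was *Hoxc6* in JSMCs (29.9 FPKM) and jejunal ICC (28.1 FPKM), *Hoxa10* in CSMCs (32.5 FPKM) and colonic ICC (161 FPKM), *Hoxd9* in colonic PDGFRα+ cells (21.6 FPKM), and *Hoxb13* in mucosa (90.9 FPKM) and mucosal PDGFRα+ cells (26.2 FPKM).

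**Figure D1:**
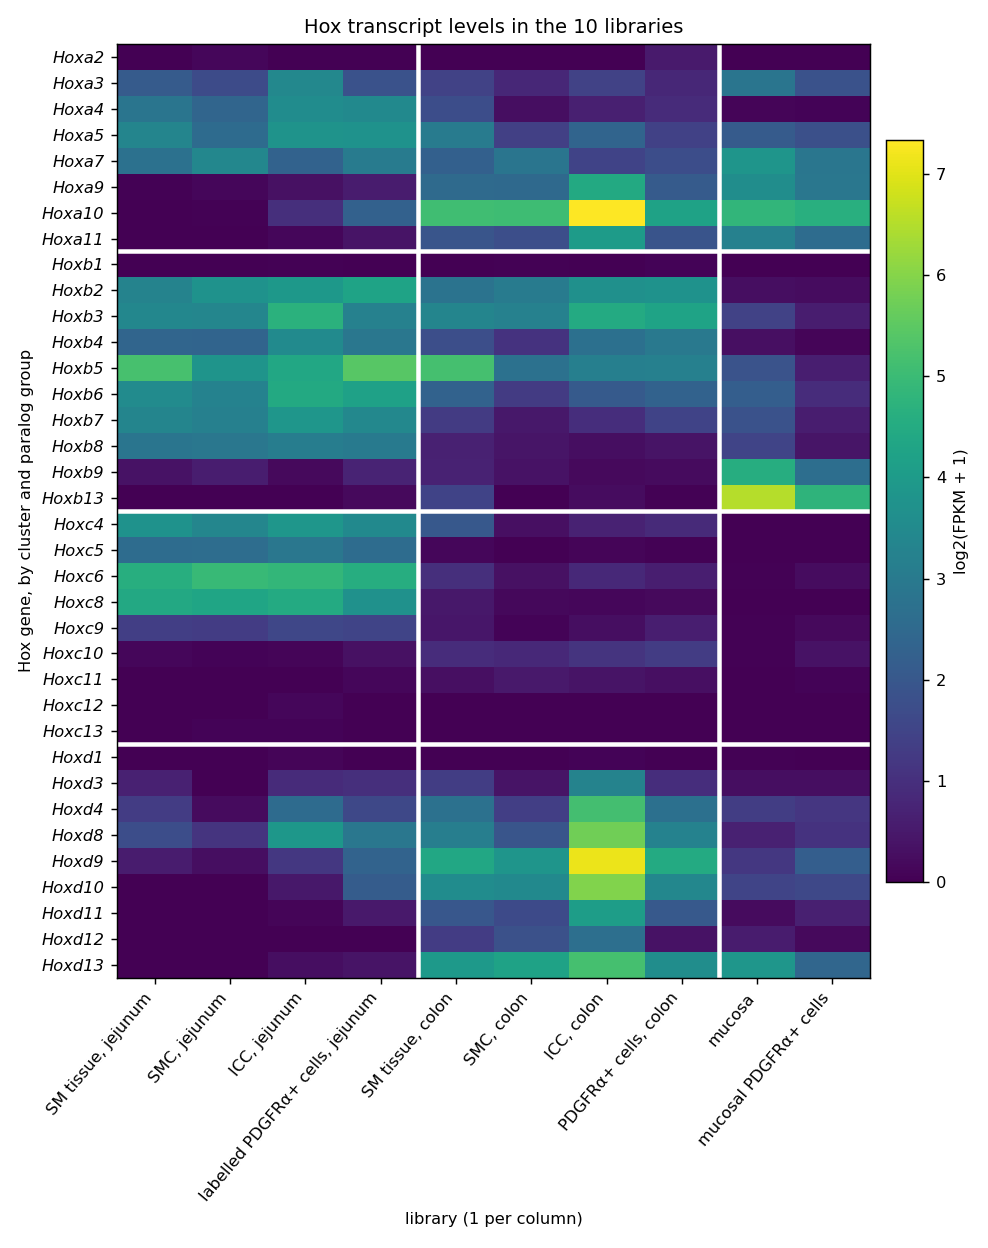
Level of each of the 36 Hox genes, as log2(FPKM + 1) in colour, with genes in rows by cluster and paralog group and the 10 libraries in columns. White lines part the clusters and the jejunal, colonic and mucosal tables, and genes without a row in a table are drawn at 0. *Hoxa10* and *Hoxd9* in colonic ICC, at 161 and 139 FPKM, are the brightest fields.

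6 genes stayed under 1 FPKM in all 10 libraries. *Hoxa2*, *Hoxb1* and *Hoxd1*, which in the embryo pattern the hindbrain region, reached at most 0.443, 0.0455 and 0.0793 FPKM. *Hoxc11*, *Hoxc12* and *Hoxc13*, the tail end of cluster C, reached at most 0.413, 0.0913 and 0.0488 FPKM. No comparison at the 4-fold threshold was made for them. The other 30 genes reached 1 FPKM in at least 1 library.

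Set out by paralog group, the Hox transcript of the muscle layer was central in jejunum and largely posterior in colon. Posterior genes held 1.38% of the Hox total in jejunal SM tissue, 1.62% in JSMCs, 2.29% in jejunal ICC and 7.27% in the library labelled jejunal PDGFRα+ cells. In colon they held 50.4% in SM tissue, 69.0% in CSMCs, 74.4% in ICC and 49.1% in PDGFRα+ cells. No jejunal share came near a colonic one. In mucosa the posterior share was 82.4%, and in mucosal PDGFRα+ cells it was 81.9%. Among transcripts that match a known annotated structure the posterior share of colonic PDGFRα+ cells was 30.2%, the other colonic shares moved by under 1.5 times, and the jejunal shares were 0.159% to 3.24%.

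The clusters differed as well. Cluster C held 24.0% to 43.3% of the Hox FPKM in the jejunal libraries, 0.530% to 3.21% in the colonic muscle layer and at most 0.690% in the mucosal libraries. Cluster D went the other way, with 1.01% to 8.87% in jejunum and 34.5% to 57.5% in the colonic muscle layer. In mucosa cluster B led with 58.5%, nearly all of it posterior, since groups 9 to 13 made up 89.8% of the cluster B transcript there.

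**Figure D2:**
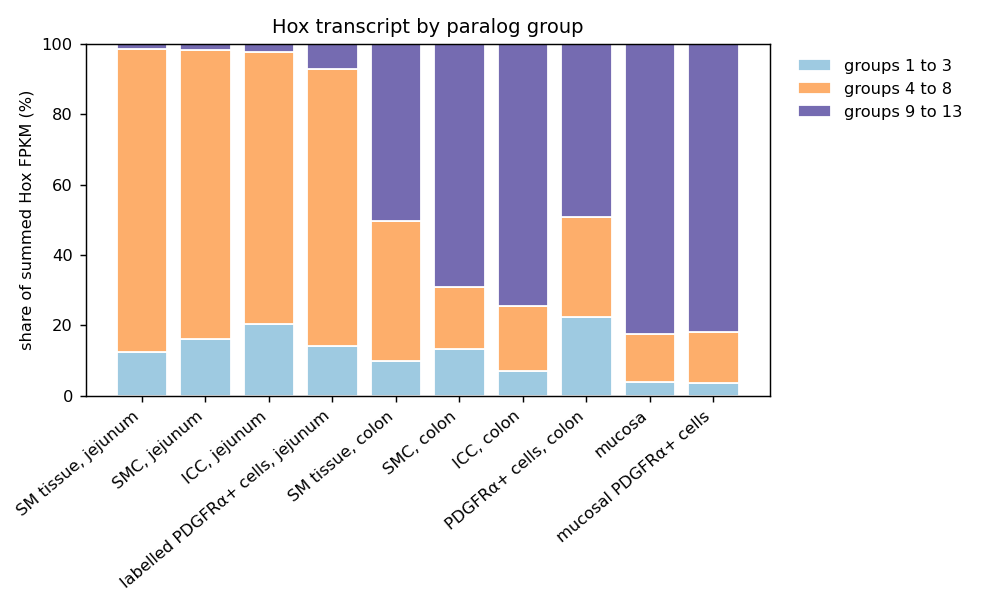
Share of the summed Hox FPKM, in percent, held by paralog groups 1 to 3, 4 to 8 and 9 to 13 in each of the 10 libraries (1 bar each). Groups 9 to 13 take 1.38% to 7.27% in the jejunal libraries and 49.1% to 82.4% in the colonic and mucosal ones.

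The comparison of organs asks which genes differ between colon and jejunum in the same kind of sample. Genes with 1 FPKM or more in either library entered, and a gene was counted at a 4-fold difference on the scale of FPKM + 1. In SM tissue 5 of 28 Hox genes compared were 4-fold higher in colon, where 0.616% of all genes were, and 5 were 4-fold lower (0.257% of all genes). In SMCs 5 of 26 were higher (0.556%) and 7 lower (0.442%). In ICC 10 of 28 were higher (2.26%) and 8 lower (1.78%). With the libraries labelled PDGFRα+ cells 2 of 26 were higher (1.85%) and 8 lower (5.20%). All genes that were 4-fold higher in colon at these settings belonged to clusters A and D, and no gene of groups 9 to 13 was 4-fold lower in any of the 4 pairs.

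*Hoxd13*, which in mice shapes digits and the anal sphincter, and *Hoxd9*, a gene of the lower trunk and limbs, were 4-fold higher in colon in all 4 pairs. *Hoxd13* was below the cutoff in jejunal SM tissue and JSMCs, at 0.213 FPKM in jejunal ICC and at 0.307 FPKM in the library labelled jejunal PDGFRα+ cells. In colon it was at 14.7 FPKM in SM tissue, 17.6 in CSMCs, 34.8 in ICC and 11.1 in PDGFRα+ cells. The lowest colonic level was thus far above the highest jejunal one. *Hoxd9* ran from 0.206 FPKM in JSMCs to 4.10 FPKM in the library labelled jejunal PDGFRα+ cells, with 0.464 in SM tissue and 1.30 in ICC. Its colonic levels were 20.1 FPKM in SM tissue, 13.1 in CSMCs, 139 in ICC and 21.6 in PDGFRα+ cells.

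*Hoxa10*, a gene of the lumbar region and the uterus, *Hoxa9*, also known from blood stem cells, and *Hoxd10*, a gene of hindlimb motor neurons, were 4-fold higher in 3 pairs, all but the one with the libraries labelled PDGFRα+ cells. *Hoxa10* was below the cutoff in jejunal SM tissue, at 0.0343 FPKM in JSMCs, 0.976 in ICC and 3.82 in the library labelled jejunal PDGFRα+ cells. Its colonic levels were 33.1 FPKM in SM tissue, 32.5 in CSMCs, 161 in ICC and 17.6 in PDGFRα+ cells. Its log2 difference between organs was 6.36 in ICC, the largest of any Hox gene in any pair. *Hoxd10* reached 10.8, 10.1, 61.2 and 9.47 FPKM in the same order in colon, and in jejunum it was below the cutoff in SM tissue and JSMCs, at 0.386 FPKM in ICC and 3.36 in the library labelled PDGFRα+ cells. *Hoxa11*, *Hoxd11* and *Hoxd12*, genes of the limb, and *Hoxd3* and *Hoxd4*, genes of the upper vertebrae, passed 4-fold in ICC alone, the pair with the highest colonic levels.

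Lower in colon in all 4 pairs were *Hoxc5*, *Hoxc6* and *Hoxc8*, genes of the lower neck and chest levels of the axis, and *Hoxb8*, known from blood and nerve cells. In jejunum *Hoxc6* was at 23.3 FPKM in SM tissue, 29.9 in JSMCs, 28.1 in ICC and 22.7 in the library labelled PDGFRα+ cells. In colon it was at 0.990, 0.266, 0.815 and 0.544 FPKM in the same order. *Hoxc8* fell from 20.7, 19.0, 21.4 and 12.0 FPKM to 0.396, 0.105, 0.0911 and 0.140 FPKM, which is at most 1.92% of the jejunal level in any pair. For these genes the jejunal levels were close to each other and the colonic ones all low. *Hoxb8* lay between 6.20 and 7.58 FPKM in the 4 jejunal libraries and between 0.219 and 0.594 FPKM in the colonic ones. *Hoxa4*, *Hoxb7* and *Hoxc4* were 4-fold lower in 3 pairs each. Inside the colon, *Hoxc4* was at 3.08 FPKM in SM tissue and 0.227 to 0.837 FPKM in the sorted cells, and *Hoxa4* at 2.35 FPKM and 0.216 to 0.867 FPKM.

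**Figure D3:**
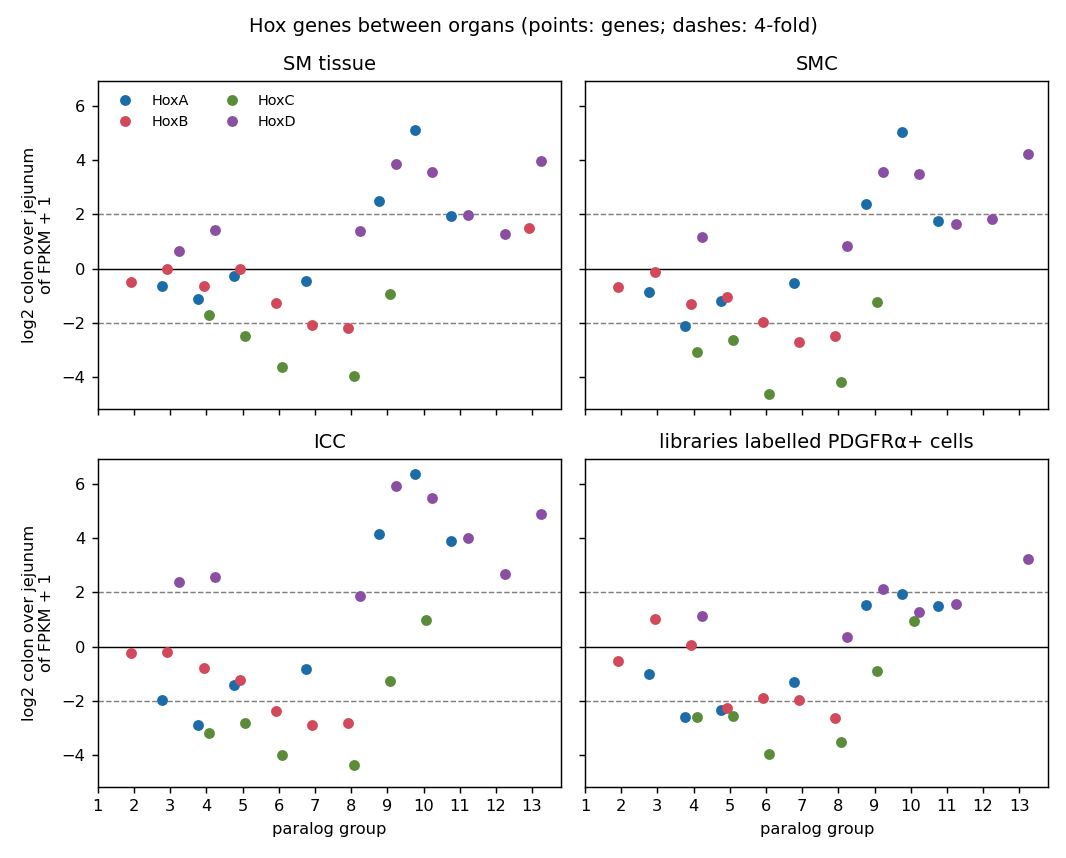
Log2 difference of FPKM + 1, colon over jejunum, for each Hox gene compared (points, coloured by cluster), against its paralog group, in 4 panels for SM tissue, SMC, ICC and the libraries labelled PDGFRα+ cells. Dashed lines mark 4-fold. HoxD genes (purple) lie above 0 in every panel, HoxC genes (green) of groups 4 to 9 below 0, and HoxA genes (blue) pass from below 0 in groups 3 to 7 to above 0 from group 9 on.

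The turn from lower to higher came between groups 7 and 9 in cluster A, while cluster D was higher in colon along its whole measured length. In SM tissue, SMCs and ICC all 15 genes of groups 1 to 8 of clusters A, B and C that were compared had a log2 difference below 0, and with the libraries labelled PDGFRα+ cells 13 of 15 did. The median log2 difference of all genes was 0.05, -0.14, 0.13 and -0.01 in the same order of pairs. The share of all genes on each side of 0 was not computed. *Hoxb3* and *Hoxb5* were close to 0 in SM tissue, at -0.03 and -0.01, and other scalings moved *Hoxb5* in SM tissue or *Hoxb3* in SMCs above 0. The cluster D genes compared, 8 in SM tissue and ICC, 7 in SMCs and 6 with the libraries labelled PDGFRα+ cells, were all above 0, also with TPM and with median ratio scaling. *Hoxd4* and *Hoxd8* therefore went opposite to *Hoxa4*, *Hoxb4*, *Hoxc4*, *Hoxb8* and *Hoxc8* of their own groups in SM tissue, SMCs and ICC. The jejunal levels of *Hoxd8* were 2.36, 1.15, 13.8 and 6.50 FPKM and the colonic ones 7.79, 2.80, 52.7 and 8.61 FPKM, in the order SM tissue, SMCs, ICC and libraries labelled PDGFRα+ cells, so that jejunal ICC stood above 3 of the 4 colonic libraries.

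Taking the 4 jejunal against the 4 colonic libraries of the muscle layer, 29 Hox genes reached 1 FPKM in 1 or more of the 8. For 9 of them each colonic level was above each jejunal one, where 0.975% of all genes showed this: *Hoxa9*, *Hoxa10*, *Hoxa11*, *Hoxc10*, *Hoxd9*, *Hoxd10*, *Hoxd11*, *Hoxd12* and *Hoxd13*. For 10 the jejunal levels were all above (3.11% of all genes): *Hoxa3*, *Hoxa4*, *Hoxb6*, *Hoxb7*, *Hoxb8*, *Hoxc4*, *Hoxc5*, *Hoxc6*, *Hoxc8* and *Hoxc9*. Without the libraries labelled PDGFRα+ cells the same genes made up both lists, with 2.39% and 4.49% of all genes. The cell types are not replicates of an organ. *Hoxc10*, a gene of the lumbar level, was the one HoxC gene higher in colon among those reaching 1 FPKM, at 0.798 to 1.46 FPKM against 0.0477 to 0.260 FPKM in jejunum. *Hoxc11*, which stayed under 1 FPKM, was at 0.235 to 0.413 FPKM in colon and at most 0.0983 FPKM in jejunum.

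The other 10 genes overlapped between the organs, 6 of them anterior or central genes of clusters A and B. *Hoxb2* lay between 8.76 and 18.3 FPKM in jejunum and between 5.96 and 12.4 FPKM in the colonic muscle layer, and *Hoxb3* between 8.43 and 24.7 FPKM and between 8.33 and 21.6 FPKM. The ranges of *Hoxb3* were nearly the same in both organs, and those of *Hoxb2* overlapped with the jejunal one higher. *Hoxb4*, which acts in blood stem cells, lay between 4.19 and 10.4 FPKM in jejunum and between 1.12 and 6.76 FPKM in colon. *Hoxa5*, needed for lung and gut maturation in mice, was at 4.97 to 12.7 FPKM in jejunum and 1.60 to 7.34 FPKM in colon. Among the genes that parted the organs, *Hoxa3*, a gene of the neck glands, was at 2.22 to 9.81 FPKM in jejunum against 0.765 to 1.75 FPKM in colon. *Hoxb6*, a central gene, was at 8.58 to 21.0 FPKM in jejunum and 1.44 to 3.99 FPKM in colon.

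In the pair of libraries labelled PDGFRα+ cells the posterior genes differed less than in the other pairs. In that jejunal library *Hoxa10* stood at 21.7% of its level in colonic PDGFRα+ cells, *Hoxd10* at 35.5% and *Hoxd9* at 19.0%, while in ICC the jejunal levels were 0.605%, 0.630% and 0.933% of the colonic ones. *Hoxa10* and *Hoxd10* were the 2 Hox genes 4-fold higher in that library than in jejunal SM tissue, where 0.913% of all genes were, and none was lower (0.140%). Its markers matched its label only in part, as given above, and the part of other cells in these values was not tested.

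The promoters of genes on both sides of the organ difference are shown here with the one motif that is known to bind Cdx factors, CATAAA on either strand. RefSeq promoter sequences were given for 20 of the 36 genes, with 22 start sites, and were placed in the mouse genome build mm9 by exact match. Printed, for chosen genes only, are the 250 bases upstream of the start where these touch no annotated exon. The motif is in capitals and all other bases are in lower case. *Hoxa10* (chr6:52190854-52191103, minus strand) and *Hoxd13* (chr2:74506032-74506281, plus strand) stand for genes higher in colon, *Hoxd4* (chr2:74559785-74560034, plus strand) for cluster D genes that were highest in colonic ICC, and *Hoxb8* (chr11:96142969-96143218, plus strand) for genes lower in colon.
Hoxa10: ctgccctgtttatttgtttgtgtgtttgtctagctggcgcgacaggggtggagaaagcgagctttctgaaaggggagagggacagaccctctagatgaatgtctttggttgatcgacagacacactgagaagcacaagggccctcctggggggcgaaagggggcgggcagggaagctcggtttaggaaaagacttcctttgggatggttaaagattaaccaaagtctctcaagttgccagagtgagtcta
Hoxd13: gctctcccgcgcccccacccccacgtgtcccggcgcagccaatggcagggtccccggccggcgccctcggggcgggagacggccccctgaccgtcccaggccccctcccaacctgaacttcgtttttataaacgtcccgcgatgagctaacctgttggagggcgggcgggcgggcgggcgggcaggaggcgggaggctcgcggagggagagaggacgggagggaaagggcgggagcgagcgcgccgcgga
Hoxd4: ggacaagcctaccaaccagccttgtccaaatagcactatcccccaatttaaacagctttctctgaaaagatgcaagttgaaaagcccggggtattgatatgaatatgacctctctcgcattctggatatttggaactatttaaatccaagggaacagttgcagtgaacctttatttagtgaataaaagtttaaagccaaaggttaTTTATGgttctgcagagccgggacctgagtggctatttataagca
Hoxb8: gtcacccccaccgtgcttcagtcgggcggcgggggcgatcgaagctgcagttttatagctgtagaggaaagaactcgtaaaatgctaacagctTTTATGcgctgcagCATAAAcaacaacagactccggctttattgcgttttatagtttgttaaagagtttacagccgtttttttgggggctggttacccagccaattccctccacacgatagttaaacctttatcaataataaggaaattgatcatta
The *Hoxb8* stretch held the motif at 2 places, 157 to 152 and 143 to 138 bases before the start, and the *Hoxd4* stretch held it 45 to 40 bases before the start. It was found in none of the printed *Hoxa10* and *Hoxd13* bases. Of the 22 Hox stretches 5 held the motif, and so did 10.8% of the 32841 mouse promoter stretches of the same length. The 5 belonged to *Hoxa7*, *Hoxb8*, *Hoxd3*, *Hoxd4* and *Hoxd11*, so the motif was found on both sides of the organ difference. It was in none of the stretches of *Hoxa3*, *Hoxa5*, *Hoxb4* and *Hoxc4*, which were lower in colonic SM tissue, SMCs and ICC. Nor was it in those of *Hoxa9*, *Hoxa10* (at either start site), *Hoxa11*, *Hoxd8*, *Hoxd9*, *Hoxd10*, *Hoxd12* and *Hoxd13*, which were higher there. *Hoxd8*, like *Hoxd4*, was highest in colonic ICC, and its stretch is not printed. A HOX-PBX motif, TGATTNAT on either strand, was in 2 Hox stretches and in 2.83% of all, and the MEIS motif TGACAG on either strand was in 2 Hox stretches and in 15.9% of all. The motifs do not overlap each other in the printed sequences, and a match is a stretch of letters and no measured site.

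The comparison of cell types asks how sorted cells differ from the unsorted muscle layer around them. In the colonic muscle layer, ICC carried the highest levels of the posterior genes of clusters A and D, while *Hoxb13* was highest in SM tissue and *Hoxc10* in PDGFRα+ cells. Against colonic SM tissue 7 of 24 Hox genes compared were 4-fold higher in ICC, where 1.43% of all genes were: *Hoxa10*, *Hoxa11*, *Hoxd4*, *Hoxd8*, *Hoxd9*, *Hoxd10* and *Hoxd11*. All 8 cluster D genes compared and all 8 posterior genes of clusters A and D were above 0 in ICC against SM tissue, against CSMCs and against PDGFRα+ cells, under each of the scalings. The median log2 difference of all genes in these comparisons was 0.14, 0.49 and 0.25. It was 0.19, 0.75 and 0.45 with TPM and 0.01, 0.01 and -0.02 with median ratio scaling. *Hoxd4*, a gene that also acts in the hindbrain, was at 5.63 FPKM in SM tissue, 1.58 in CSMCs, 34.3 in ICC and 5.57 in PDGFRα+ cells. For *Hoxa10* the ICC level was 161 FPKM against 32.5 in CSMCs, and for *Hoxd9* it was 139 against 13.1 FPKM. Those levels placed *Hoxa10* as gene 286 and *Hoxd9* as gene 335 in the order of all genes of the colonic ICC library.

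Against CSMCs, 8 of 20 Hox genes compared were 4-fold higher in ICC (4.50% of all genes), which fell to 4 of 19 with median ratio scaling. The median log2 difference of all genes between these libraries was 0.49 before that scaling and 0.01 after it. Against colonic PDGFRα+ cells 10 of 21 were 4-fold higher (2.44% of all genes) and 8 with median ratio scaling. No Hox gene was 4-fold lower against CSMCs (2.57% of all genes) or PDGFRα+ cells (2.08%). *Hoxa7*, a central gene, went the other way, at 6.26 FPKM in CSMCs and 1.77 in ICC, and in jejunum it was likewise highest in JSMCs, at 9.45 against 3.91 FPKM in ICC.

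In jejunum, ICC also held the highest *Hoxd4* and *Hoxd8* levels. *Hoxd8* was 4-fold higher than in jejunal SM tissue (1 of 19 Hox genes compared, against 1.62% of all genes) and none 4-fold lower (2.72%), and *Hoxd4* and *Hoxd8* were 4-fold higher than in JSMCs (2 of 19, against 3.59%) with none lower (2.42%). There *Hoxd4* stood at 1.47 FPKM in SM tissue, at 0.159 in JSMCs, 4.91 in ICC and 2.03 in the library labelled PDGFRα+ cells. ICC was the highest of the 4 jejunal libraries for 14 of the 21 genes that reached 1 FPKM there, and of the 4 colonic libraries for 12 of 24. With median ratio scaling these were 11 of 21 and 11 of 24. The share of all genes that were highest in ICC was not computed, so these counts do not set Hox genes apart from other genes. The median log2 difference of all genes was 0.21 in ICC over JSMCs and 0.49 in ICC over CSMCs before that scaling. *Hoxb3*, which acts in the hindbrain and neck, was likewise highest in ICC, at 24.7 FPKM in jejunal ICC against 8.43 to 9.45 FPKM in the other 3 jejunal libraries.

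**Figure D4:**
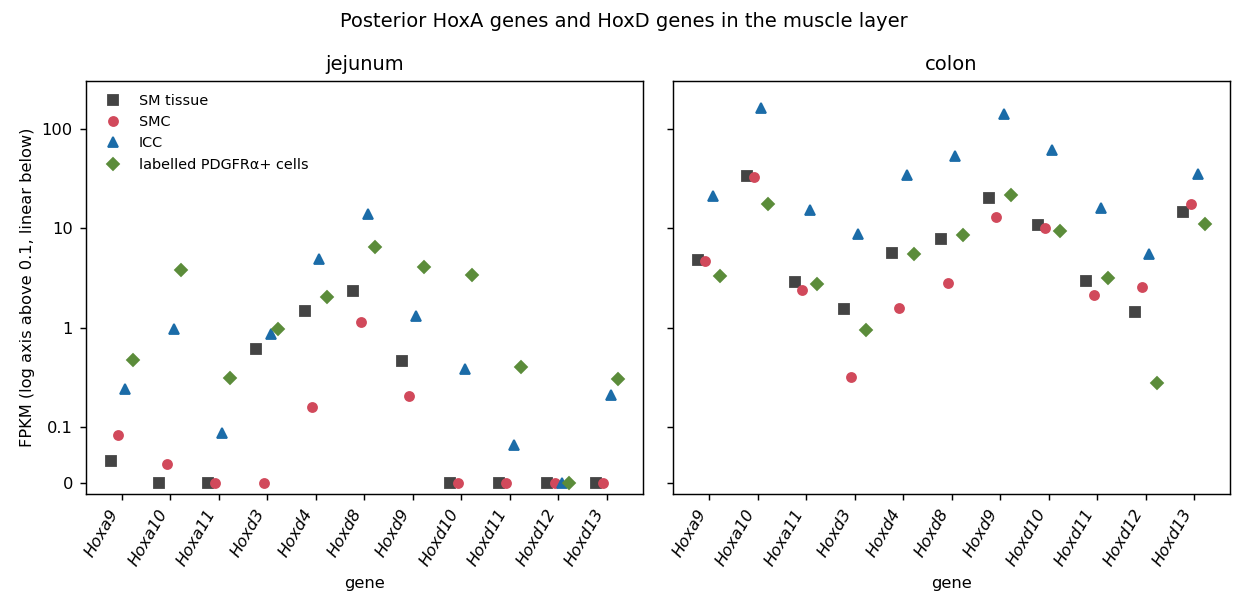
FPKM of posterior HoxA genes and of HoxD genes in the 4 jejunal (left) and 4 colonic (right) libraries of the muscle layer, on an axis that is logarithmic above 0.1 and linear below. *Hoxd12* has no jejunal row and is drawn at 0. ICC (blue triangles) are highest for each gene in colon, up to 161 FPKM for *Hoxa10*.

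Few Hox genes were 4-fold apart from SM tissue in SMCs and colonic PDGFRα+ cells, with shares near or under those of all genes. In JSMCs 0 of 18 Hox genes compared were 4-fold apart from SM tissue, where 0.297% of all genes were higher and 3.48% lower. In colonic PDGFRα+ cells 0 of 24 were, where 2.08% were higher and 6.18% lower. In CSMCs the 1 gene of 23 was *Hoxb5*, 4-fold lower (5.30% of all genes), and none was higher (0.149%). With TPM the CSMC count was 5 and that of colonic PDGFRα+ cells 3. *Hoxb5*, a central gene that acts in neural crest cells entering the gut, was also the 1 gene 4-fold lower in colonic ICC (4.40% of all genes). It was at 35.2 FPKM in colonic SM tissue, 5.68 in CSMCs, 7.91 in ICC and 8.09 in PDGFRα+ cells, and at 35.6, 12.96, 20.1 and 42.0 FPKM in the jejunal libraries in the same order. The 7 enteric neuron markers gave the same order of libraries in jejunum and nearly so in colon, with summed levels of 384, 27.0, 50.4 and 30.4 FPKM in colon and 269, 16.2, 62.1 and 330.2 FPKM in jejunum, none of them at 0 in these libraries. The 4 endothelial markers gave the *Hoxb5* order in both organs, at 45.3, 2.68, 2.71 and 7.35 FPKM in colon and 24.3, 3.67, 5.13 and 45.5 FPKM in jejunum. So did the 4 mesothelial markers, at 154, 7.95, 13.2 and 18.1 FPKM and at 241, 17.1, 28.5 and 301 FPKM. Enteric glia markers did so in jejunum alone and macrophage markers in colon alone. The part of neurons or of other cells in the *Hoxb5* level was not tested. In bulk samples fewer cells of a type and less RNA per cell cannot be told apart.

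In the colonic mucosa the posterior end of cluster B was high. Mucosa carried *Hoxb13*, the last gene of cluster B and known from the rectal epithelium and the prostate, at 90.9 FPKM, and mucosal PDGFRα+ cells carried it at 26.2 FPKM. In the muscle layer it was at 1.81 FPKM in colonic SM tissue, below the cutoff in CSMCs, at 0.176 FPKM in ICC and 0.0326 FPKM in PDGFRα+ cells. *Hoxb9*, a gene of the rib-bearing levels, was at 22.6 FPKM in mucosa and 5.24 FPKM in mucosal PDGFRα+ cells, against 0.141 to 0.649 FPKM in the 8 muscle layer libraries. Its annotated transcript held 1.92% of that level in mucosa, at 0.435 FPKM, and 1.53% in mucosal PDGFRα+ cells, at 0.0801 FPKM. The rest lay in an assembled variant of 2368 bases that matches no annotated transcript. *Hoxb13* and *Hoxb9* were the Hox genes 4-fold higher in mucosa than in colonic SM tissue (2 of 25 compared, 7.80% of all genes). The same held for mucosal against muscle layer PDGFRα+ cells (2 of 21, 6.34%). As shares of the Hox genes compared these are 8.00% and 9.52%, near those of all genes.

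Both genes were lower in mucosal PDGFRα+ cells than in unsorted mucosa, with log2 differences of -1.76 and -1.92. The 6 epithelial markers fell with them, from a summed 4628 to 1268 FPKM, and so did *Cdx1*, an intestinal epithelial factor, from 145 to 40.4 FPKM, and *Cdx2* from 88.7 to 27.0 FPKM. *Hoxb13* in the sorted cells was thus at a share of its mucosal level similar to that of these epithelial genes, and the part of epithelial RNA in it was not tested. The posterior genes *Hoxa10*, at 27.6 FPKM in mucosa and 23.8 in mucosal PDGFRα+ cells, and *Hoxd9*, at 1.27 and 3.60 FPKM, did not show that drop. *Hoxd13* did, at 13.6 and 4.38 FPKM, which is 32.3% of its mucosal level. *Hoxa9* and *Hoxa11* lay between, at 58.8% and 60.1%.

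Other Hox genes were lower in the mucosal libraries. Against colonic SM tissue 6 of 25 Hox genes were 4-fold lower in mucosa (9.91% of all genes): *Hoxb2*, *Hoxb5*, *Hoxc4*, *Hoxd8*, *Hoxd9* and *Hoxd10*, of which the last pair are posterior. Of the 15 anterior and central genes compared there, 11 were below 0 and 4 above: *Hoxa3* (log2 difference 1.38), *Hoxa7* (1.57), *Hoxb7* (0.58) and *Hoxb8* (0.84). The median log2 difference of all genes there was 0.04. Against muscle layer PDGFRα+ cells 6 of 21 were 4-fold lower in mucosal ones (3.11%): *Hoxb2*, *Hoxb3*, *Hoxb4*, *Hoxb5*, *Hoxd8* and *Hoxd9*. *Hoxb2*, a hindbrain gene, was at 12.4 FPKM in muscle layer and 0.186 FPKM in mucosal PDGFRα+ cells, and *Hoxb3* at 18.3 and 0.497 FPKM. In cluster A the directions were mixed. Its 6 genes compared between both kinds of PDGFRα+ cells had log2 differences of 0.39 to 1.12 towards mucosa, while *Hoxa4*, under 1 FPKM in both and so not compared, was at 0.867 FPKM in the muscle layer and 0.0553 FPKM in mucosal cells. Between mucosa and SM tissue 4 of 7 cluster A genes were above 0 and 3 below, among them *Hoxa4* at 0.0615 against 2.35 FPKM and *Hoxa5* at 3.31 against 7.34 FPKM. *Hoxa7* was highest of all libraries in mucosa, at 13.2 FPKM. No Hox gene of 18 compared was 4-fold apart between mucosa and mucosal PDGFRα+ cells (5.50% of all genes higher and 1.64% lower in the cells).

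**Figure D5:**
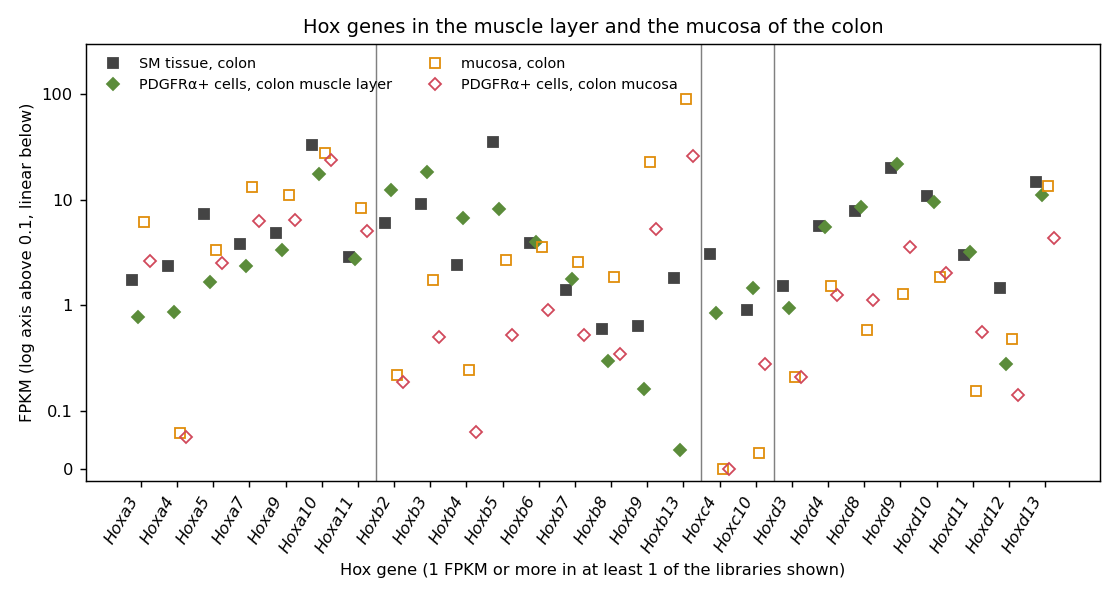
FPKM of the Hox genes that reach 1 FPKM in any of 4 colonic libraries: SM tissue and muscle layer PDGFRα+ cells (filled) and mucosa and mucosal PDGFRα+ cells (open), on an axis that is logarithmic above 0.1 and linear below. Vertical lines part the clusters. *Hoxb9* and *Hoxb13* are high in the mucosal libraries, *Hoxb2* to *Hoxb5* and most HoxD genes in the muscle layer.

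The whole Hox profile was compared between libraries by Pearson's r of log2(FPKM + 1) over the 36 genes, as a description across genes, which are not independent of each other. Within jejunum r lay between 0.90 and 0.97, within the colonic muscle layer between 0.85 and 0.89, and between both mucosal libraries it was 0.94. Between jejunum and colon the same cell type gave r from -0.05 to 0.38, while over all 19214 genes these same pairs of libraries gave 0.92 to 0.98. Mucosal libraries gave r of 0.24 to 0.52 with the colonic muscle layer and -0.29 to -0.06 with jejunum. Pairs within 1 table share its assembly of transcripts.

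Genes around the Hox system were seldom 4-fold apart between organs, as most genes were not, with 0.257% to 5.20% of all genes called per pair and direction. None of the 9 genes of the Pbx, Meis and Pknox families, which encode DNA binding partners of Hox proteins, was 4-fold apart between jejunum and colon in any of the 4 pairs. The jejunal levels of *Meis2* were 62.7, 65.3, 83.4 and 44.5 FPKM and the colonic ones 50.1, 48.7, 95.4 and 89.7 FPKM, in the order SM tissue, SMCs, ICC and libraries labelled PDGFRα+ cells. In mucosa *Meis1*, *Meis2* and *Pbx3* were 4-fold lower than in colonic SM tissue, at 0.863, 1.11 and 3.85 FPKM against 38.0, 50.1 and 51.0. Of the 16 Polycomb and Trithorax genes, which hold Hox genes silent or active, *Pcgf2* alone passed 4-fold between organs, with the libraries labelled PDGFRα+ cells, at 40.5 FPKM in colon and 8.25 in jejunum. Of the 11 genes that flank the clusters, *Skap2* beside cluster A alone did, in the same pair, at 2.16 and 14.3 FPKM.

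Other homeobox genes of the gut mesenchyme did part the organs. *Pitx1*, which gives hindlimb identity, and *Six2*, known from kidney progenitors and the pyloric sphincter, were 4-fold higher in colon in all 4 pairs. *Pitx1* was at 6.99, 23.4, 14.7 and 6.90 FPKM in colon and at most 0.865 FPKM in jejunum, and *Six2* at 6.11, 14.8, 6.29 and 7.75 FPKM against at most 0.533. *Nkx3-2* marked ICC in both organs, at 198 FPKM in jejunum and 115 in colon against 3.91 to 20.8 FPKM in the other 6 muscle layer libraries.

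Noncoding transcripts inside the clusters were measured as well. *Hoxa11as*, read from the opposite strand of *Hoxa11*, was below the cutoff in jejunal SM tissue and JSMCs and at 21.7, 21.0, 109 and 19.7 FPKM in colonic SM tissue, CSMCs, ICC and PDGFRα+ cells. It was 5.77 to 12.0 times the *Hoxa11* level in the 8 libraries with both. The assembled *Hoxa11* variants were 7487 to 16705 bases long, matched no annotated transcript, and those of *Hoxa11as* were 1157 to 2467 bases long. As FPKM is scaled to length, the ratio depends on these assembled lengths. Counting by strand is not stated, so reads of both genes cannot be told apart where they overlap. *Gm53*, which lies between *Hoxb13* and *Hoxb9*, was at 25.5 FPKM in mucosa and 5.14 in mucosal PDGFRα+ cells, and under 1 FPKM in the muscle layer, as *Hoxb9* was. Variants of *Gm53* and *Hoxb9* were assembled in the same locus, so fragments may have been split between them in ways that cannot be checked here.

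Many Hox transcripts were assembled in forms that match no annotated transcript, and this share was larger in colon. Variants equal to an annotated transcript held 73.3% to 76.6% of the Hox FPKM in the jejunal libraries but 41.4% to 58.7% in the colonic muscle layer. No variant of *Hoxa3*, *Hoxa5*, *Hoxa11*, *Hoxd4*, *Hoxd9*, *Hoxd10* or *Hoxd11* matched one. The main *Hoxd9* variant, of 1057 bases, held 72.8% to 77.5% of its level in the colonic muscle layer, and the other variants, of 12671 to 16477 bases, were longer than the annotated gene. All *Hoxa11* variants were 7487 to 16705 bases long, and the locus reached over *Hoxa13*. *Hoxd9* to *Hoxd12* shared 1 assembled locus, as did *Hoxd3* with *Hoxd4*, *Hoxb5* with *Hoxb6*, *Hoxc5* with *Hoxc6*, and *Hoxa2*, *Hoxa3*, *Hoxa5* and *Hoxa7*, so fragments of neighbouring genes may have been split between them in ways that cannot be checked here. With annotated transcripts alone the colon-high count of ICC fell from 10 to 5, and *Hoxa9*, *Hoxa10* and *Hoxd13* were still 4-fold higher in SM tissue, SMCs and ICC. *Hoxd9* and *Hoxd10* have no annotated variant and gave no value there. *Hoxb8* was then at log2 differences of -1.78 in SM tissue, -1.92 in SMCs and -1.89 with the libraries labelled PDGFRα+ cells, short of 4-fold, and at -2.34 in ICC.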

How the data were processed

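RNA-seq values of 10 mouse gut libraries, 1 per condition, were used as the authors deposited them. Per the labels and the study's methods, the authors aligned reads to mm9 with TopHat 1.4.1 and built and measured transcripts with Cufflinks 2.0.2 (Cuffdiff is also named). The deposited unit is FPKM per transcript variant, in separate jejunal, colonic and mucosal tables of 70143, 68502 and 59061 variants. Each table lists only variants with at least 0.025 FPKM in 1 of its libraries. The tables hold no read totals. The study states totals for the SM tissue and SMC libraries only, and they were not used here. In single-variant genes of 2000 bases or more, 26.8% to 41.2% of the lowest 400 values per library lay within 0.1 of a whole number of fragments at the best-fitting unit, where about 20% would at an arbitrary one, so counts were not recovered and no counting error is given.

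Here variants under 0.025 FPKM were set to 0, the study's cutoff, and summed by gene symbol. Libraries were compared as log2 of FPKM + 1, over genes with 1 FPKM or more in either library, at a 4-fold threshold. No p-value was computed, since no condition has a second library. The members, the gene lists and the rules were chosen with earlier results of these data known. The rule named Hox genes that differed 4-fold in a comparison or were the highest of a cluster, with the rest by range and count. Hox genes outside it, such as *Hoxa2* and *Hoxb2*, were named after their values were seen. Lists were cofactors, Cdx, flanking, Polycomb and Trithorax, gut homeobox and cell type marker genes. *Cdx4* stayed under 0.1 FPKM where listed.

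Coordinates are from gencode vM1 on NCBIM37, which is mm9, and promoters from RefSeq. Alternatives were other cutoffs, pseudocounts, filters and thresholds, TPM, median ratio scaling and annotated transcripts alone. FPKM totals were 298216 to 384512 per library, so TPM values were larger than FPKM. The cutoff, pseudocount and filter kept their numbers with TPM, so TPM counts differ from the main ones in more than scaling. The fold calls were tested on simulated data. Tables were computed in Python 3.11.15 with pandas 2.3.3 and numpy 2.4.6, and plots drawn with matplotlib 3.10.9.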

Additional observations from a re-analysis of the deposited data

How the results depend on the processing

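With 1 library per condition, spread between animals cannot be stated. No paired analysis was possible because each condition has 1 library and no test was run. Recomputed were 364 counts, shares and correlations. Of these, 286 stayed within 1.5 times of the value given (within 0.1 for correlations) and 78 did not. Counts and shares have no direction that could change, and no correlation changed sign. Directions of genes did change with scaling. In CSMCs over colonic SM tissue 2 of 8 posterior genes of clusters A and D were above 0, and 6 with median ratio scaling. The counts of 4-fold genes depended most on the pseudocount, on the fold threshold and on annotated transcripts alone. All 14 single Hox differences that fell under 4-fold did so with annotated transcripts alone, 11 of them because the gene has no annotated variant. The settings restricted to genes listed in both tables were chosen after seeing the data. Where scaling moved the median log2 difference of all genes by over 0.1, the largest such shift was in ICC over CSMCs, given above. For CSMCs over colonic SM tissue that median was -0.32, -0.53 with TPM and 0.03 with median ratio scaling. In mucosa over colonic SM tissue 10 Hox genes were 4-fold lower with TPM and 4 with median ratio scaling.

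Higher in colon, in the order SM tissue, SMCs, ICC and libraries labelled PDGFRα+ cells, were 5, 5, 10 and 2 genes. With TPM, at an unchanged pseudocount and filter on larger values, the counts were 9 in SM tissue, 8 in SMCs and 6 with the libraries labelled PDGFRα+ cells. With annotated transcripts they were 3, 3, 5 and 1. With a pseudocount of 0.025 or 0.1 they were 9 in SM tissue, 9 in SMCs and 7 in the last pair. At 2-fold they were 11, 9 and 9 in these pairs, and in the last pair 1 at 8-fold and 6 with a cutoff of 1 FPKM. Lower in colon, the counts of 5 and 7 in SM tissue and SMCs became 2 and 2 with a filter of 10 FPKM and 8 and 12 at 2-fold, and at 8-fold the 4 pairs had 2, 3, 3 and 2.

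Against tissue, JSMCs had 1 gene with a cutoff of 1 FPKM or a pseudocount of 0.025 or 0.1, and 2 at 2-fold. Jejunal ICC had 2 with a cutoff of 1 FPKM, 5 at 2-fold and 0 at 8-fold. The library labelled jejunal PDGFRα+ cells had 0 with a filter of 10 FPKM, 1 with annotated transcripts, 4 at 2-fold and 0 at 8-fold. CSMCs had 5 with TPM, 6 and 5 with a pseudocount of 0.025 and 0.1, 8 at 2-fold and 0 at 8-fold. Colonic ICC had 3 with annotated transcripts, 16 at 2-fold and 0 at 8-fold. Colonic PDGFRα+ cells had 3 with TPM, 1 with annotated transcripts, 4 with a pseudocount of 0.025 or 0.1 and 5 at 2-fold. Mucosal PDGFRα+ cells had 1 with a cutoff of 1 FPKM, 4 with a pseudocount of 0.025 or 0.1 and 8 at 2-fold. Between mucosal and muscle layer PDGFRα+ cells the count of 8 became 4 with a filter of 10 FPKM, 13 with a pseudocount of 0.025 or 0.1, 15 at 2-fold and 3 at 8-fold.

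With annotated transcripts alone 15 Hox genes reached 1 FPKM in colonic SM tissue, 11 in CSMCs, 12 in colonic ICC, 11 in colonic PDGFRα+ cells, 8 in mucosa and 4 in mucosal PDGFRα+ cells, and 5 genes had all colonic levels above the jejunal ones. With a filter of 10 FPKM, 6 had all jejunal levels above. The highest r between organs was 0.57 with annotated transcripts and 0.58 and 0.51 with a pseudocount of 0.025 and 0.1. The posterior share was 0.159% in jejunal SM tissue, 0.238% in JSMCs, 0.934% in jejunal ICC, 3.24% in the library labelled jejunal PDGFRα+ cells and 30.2% in colonic PDGFRα+ cells with annotated transcripts, and 0%, 0% and 0.475% in the first 3 with a cutoff of 1 FPKM. The causes of these shifts were not tested.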

Other observations

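Several colonic genes stood at similar low shares in jejunal ICC. In that library *Hoxa10*, *Hoxa11*, *Hoxd10*, *Hoxd11*, *Hoxd13*, *Hoxa11as*, *Pitx1* and *Six2* were at 0.422% to 0.634% of their levels in colonic ICC, *Hoxd9* was at 0.933% and *Hoxa9* at 1.16%. Other genes higher in colonic ICC stood at larger shares, *Hoxc10* at 5.50%, *Hoxd3* at 9.84% and *Hoxd4* at 14.3%. The genes of the first group were picked after their values were seen. In JSMCs and jejunal SM tissue *Hoxa11*, *Hoxd10*, *Hoxd11*, *Hoxd13*, *Pitx1* and *Six2* were below the cutoff. Jejunal ICC also had the most genes above the cutoff of any library, 18045 against 15188 to 16903 in the others. Where these low levels come from was not tested.

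The library labelled jejunal PDGFRα+ cells held the same colonic genes at 2.76% (*Hoxd13*) to 35.5% (*Hoxd10*) of their levels in colonic PDGFRα+ cells.

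*Hoxa10* used different transcripts in different libraries. The variant of 1670 bases held 9.97% of the *Hoxa10* level in colonic ICC, 36.2% in CSMCs, 35.5% in mucosa and 45.6% in mucosal PDGFRα+ cells, while the variant of 1485 bases held 35.1%, 10.4%, 29.9% and 15.9%. *Hoxb3* was divided between its annotated variants of 3390 and 3313 bases at 71.6% and 28.4% in jejunal SM tissue and at 47.2% and 52.8% in jejunal ICC, and at 70.2% and 29.8% in colonic SM tissue and 43.5% and 56.5% in colonic ICC. The shares are estimates of the assembly and carry no error.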
